A study of Mus musculus with 15 samples.

Results

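The ADAMTS proteases and the tissue inhibitors of metalloproteinases (TIMPs) were followed through skin wound healing in C57BL/6 mice. The genes were taken by symbol from the 15 deposited files: the 6 proteases Adamts1, Adamts2, Adamts4, Adamts5, Adamts9 and Adamts15 and the 4 inhibitors Timp1, Timp2, Timp3 and Timp4. All 10 were found among 30281 named genes, and all 10 passed the filter on low counts, which left 17136 genes to test. RNA was sequenced from skin cleared of muscle and fat at day 1, day 3, day 5 and day 7 of the wounding course and at day 0, with 3 libraries per day. The labels give the wound as the stress of every library, day 0 included, and name no genotype, age or sex. Whether the 3 libraries of a day are 3 animals is not stated, and the p-values therefore reflect the variation among libraries alone, part of which could be technical.

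ADAMTS enzymes are secreted zinc proteases with thrombospondin repeats that cut large molecules of the extracellular matrix. Adamts1, Adamts4, Adamts5, Adamts9 and Adamts15 belong to the branch that cleaves aggregating proteoglycans such as versican and aggrecan, and versican is abundant in the dermis and in the provisional matrix of a wound. Adamts2 instead removes the amino-terminal propeptide of fibrillar procollagens, and its loss makes skin fragile. TIMPs bind the active site of metalloproteinases. Timp3, which is held in the matrix, is the strong inhibitor of the aggrecan-cleaving ADAMTS enzymes, while Timp1 and Timp2 act chiefly on matrix metalloproteinases.

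Most of these genes lie apart in the genome, with exceptions. Adamts1 and Adamts5 are neighbouring genes on chromosome 16 in the RefSeq annotation, with no other protein-coding gene between them. In order of start position, the protein-coding gene before Timp1, Timp3 and Timp4 is a synapsin gene (Syn1, Syn3 and Syn2). These genes are not all separate: exons of Timp3 overlap those of Syn3, and exons of Timp4 those of Syn2, on the opposite strand. Promoters of 7 of the 10 genes matched the RefSeq promoter table (build GRCm38.p6), each with 250 bases before and 50 bases after the annotated start. Those of 4 genes whose transcripts differed over the days are printed 5′ to 3′ on the gene's own strand, because 3 of them were higher at day 1 and 1 was lower. Capitals mark a match to a motif named after them.
Adamts1, chr16:85803064-85803363, minus strand: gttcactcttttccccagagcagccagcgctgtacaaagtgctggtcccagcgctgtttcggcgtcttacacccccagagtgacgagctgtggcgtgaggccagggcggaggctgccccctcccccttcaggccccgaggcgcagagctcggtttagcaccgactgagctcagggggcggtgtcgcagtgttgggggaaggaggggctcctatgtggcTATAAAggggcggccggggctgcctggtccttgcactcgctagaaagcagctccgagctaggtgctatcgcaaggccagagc
Adamts9, chr6:92943485-92943784, minus strand: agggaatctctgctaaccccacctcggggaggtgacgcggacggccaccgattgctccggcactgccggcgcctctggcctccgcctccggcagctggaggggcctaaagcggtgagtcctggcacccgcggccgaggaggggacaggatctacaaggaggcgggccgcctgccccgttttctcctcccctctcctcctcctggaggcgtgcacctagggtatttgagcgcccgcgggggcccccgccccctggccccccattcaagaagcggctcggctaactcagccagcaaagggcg
Timp1, chrX:20869916-20870215, plus strand: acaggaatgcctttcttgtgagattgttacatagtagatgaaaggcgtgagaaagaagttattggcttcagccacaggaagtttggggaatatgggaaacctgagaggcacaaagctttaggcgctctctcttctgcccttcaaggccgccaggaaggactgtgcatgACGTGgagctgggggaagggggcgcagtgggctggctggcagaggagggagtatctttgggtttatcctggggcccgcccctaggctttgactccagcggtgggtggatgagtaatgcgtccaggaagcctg
Timp3, chr10:86300162-86300461, plus strand: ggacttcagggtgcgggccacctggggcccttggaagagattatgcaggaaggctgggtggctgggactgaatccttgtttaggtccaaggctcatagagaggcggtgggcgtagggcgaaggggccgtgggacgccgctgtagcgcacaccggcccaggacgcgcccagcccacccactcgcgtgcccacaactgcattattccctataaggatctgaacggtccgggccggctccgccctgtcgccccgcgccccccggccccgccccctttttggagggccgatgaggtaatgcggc

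Both strands were searched for 5 motifs, spelled as follows. The AP-1 motif was TGACTCA. The STAT motif was searched as TTCNNNGAA, and the cyclic AMP response element as TGACGTCA. For the core of the hypoxia response element the letters were ACGTG and for the TATA box they were TATAAA. The Adamts1 promoter held TATAAA, starting 32 bases before the annotated start (position -32), a motif present in 13.6% of all 32851 promoters of the table. The Timp1 promoter held ACGTG at position -82, and 19.6% of all promoters hold it. None of the 5 motifs was found in the other 5 matched promoters, those of Adamts2, Adamts9, Timp2, Timp3 and Timp4. Of all promoters, 5.2% held the AP-1 motif, 8.3% the STAT motif and 1.79% the cyclic AMP response element. The matched promoters differed in base composition: GC made up 64.7% of the bases for Adamts1, 70.0% for Adamts9, 67.0% for Timp3 and 55.0% for Timp1, against a median of 52.7% over the table.

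The libraries held 38062562 to 60450396 estimated counts, and levels are given as CPM, counts relative to the library total, scaled by TMM, a factor that evens out composition between libraries. Keratinocyte, fibroblast and endothelial markers were present in every library. Although the skin had been cleared of muscle and fat, so were all 6 skeletal muscle markers, at 2106 to 9859 summed CPM. All 6 adipocyte markers were present in every library too, at 651 to 1614 summed CPM. Several libraries stood apart from others of their day. Hair follicle markers summed to 13659 CPM in day 5 replicate 2 and 16663 CPM in day 7 replicate 3, against at most 1534 CPM elsewhere. Day 0 replicate 1 had more neutrophil marker RNA (201 CPM) than the other day 0 libraries (58.0 and 79.4 CPM) and was higher in Adamts1, Adamts9, Timp1 and Timp4 and lower in Timp2. Neutrophil marker sums were uneven at later days too. They were 251 CPM in day 7 replicate 3, against 48.8 and 45.6 CPM in the other day 7 libraries. Day 5 replicate 1 had 366 CPM, against 138 and 172 CPM in the other day 5 libraries. Results that rest on day 0 replicate 1, day 5 replicate 2 or day 7 replicate 3 are given with and without these libraries.

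At day 1 the proteoglycan-cleaving proteases Adamts1, Adamts4, Adamts5 and Adamts9 and the inhibitor Timp1 rose relative to day 0, by 2.02-fold to 3.60-fold, and Timp3 fell to a level 1.71-fold lower. Thus 5 of the 10 genes were called higher and 1 lower at an adjusted p under 0.05 (edgeR's quasi-likelihood test, Benjamini-Hochberg adjustment over all genes), where 7.58% of all tested genes were called, 4.22% higher and 3.36% lower. For 9 of the 10 genes the 3 day 1 libraries did not overlap the 3 day 0 libraries, a separation shown by 37.8% of all tested genes. The median log2 fold change of the 10 genes was 0.85, against -0.01 over all tested genes. Without day 0 replicate 2 none of the 10 was called by edgeR, and 33 genes were called in all, against 1299 with every library. In these bulk samples, fewer cells of a type and less RNA per cell cannot be told apart.

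**Figure D1:**
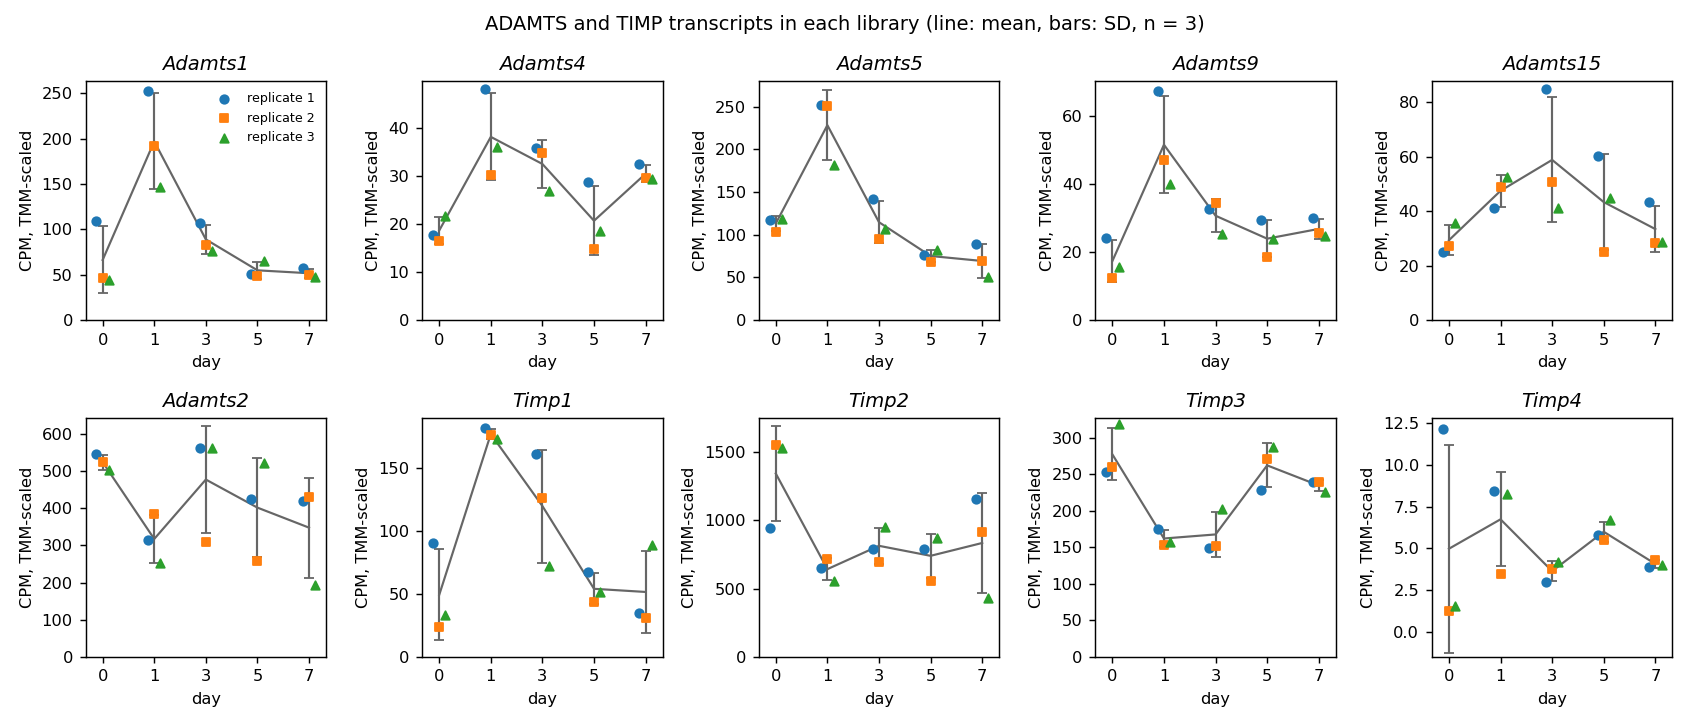
Level of each of the 10 transcripts in every library, in TMM-scaled CPM (vertical axis, one scale per gene), against the day. Points are the 3 libraries of a day, lines join the day means and bars are SD. Adamts1, Adamts4, Adamts5, Adamts9 and Timp1 have their highest mean at day 1, and Timp3 its lowest.

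Adamts1, an inflammation-inducible protease that cleaves versican and aggrecan, was at 109, 46.2 and 43.8 CPM at day 0, 252, 192 and 147 CPM at day 1, 107, 83.1 and 76.3 CPM at day 3, 50.9, 48.3 and 65.3 CPM at day 5 and 57.1, 49.9 and 47.9 CPM at day 7. Every day 1 library stood above every other library of the course. Adamts1 averaged 197 ± 52.9 CPM at day 1 and 66.3 ± 36.9 CPM at day 0 (SD, n = 3 each), a log2 fold change of 1.57 ± 0.32 (SE, edgeR adjusted p = 0.0173). The wide day 0 spread came from replicate 1, and without it the log2 fold change was 2.13. The call was lost when day 0 replicate 2, day 0 replicate 3 or day 1 replicate 1 was left out (edgeR adjusted p = 0.0651 to 0.0922, log2 fold changes of 1.35 to 1.37).

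Adamts5, the main aggrecan-cleaving enzyme of mouse cartilage, was at 117, 104 and 119 CPM at day 0, 253, 251 and 181 CPM at day 1, 142, 95.6 and 107 CPM at day 3, 76.1, 67.6 and 81.8 CPM at day 5 and 88.7, 69.2 and 49.9 CPM at day 7. The day 1 libraries again lay above all others, and all 6 libraries of day 5 and day 7 lay below every day 0 library. It averaged 229 ± 40.8 CPM at day 1 and 113 ± 8.39 CPM at day 0 (SD, n = 3 each), with a log2 fold change of 1.01 ± 0.21 (SE, edgeR adjusted p = 0.0174). Adamts5 had the smallest p of the 10 genes for any difference over the days (edgeR F test, adjusted p = 0.002). The day 1 call was lost without day 0 replicate 2, day 0 replicate 3, day 1 replicate 1 or day 1 replicate 2 (edgeR adjusted p = 0.0574 to 0.0952).

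Adamts4, the other classical aggrecanase, was at 17.7, 16.5 and 21.7 CPM at day 0, 48.1, 30.3 and 36.2 CPM at day 1, 35.9, 34.8 and 26.9 CPM at day 3, 28.7, 14.8 and 18.6 CPM at day 5 and 32.6, 29.6 and 29.3 CPM at day 7. Its libraries of day 1, day 3 and day 7 all lay above the day 0 libraries, while those of day 5 spread across the day 0 range. It averaged 38.2 ± 9.07 CPM at day 1 and 18.7 ± 2.72 CPM at day 0 (SD, n = 3 each), a log2 fold change of 1.03 ± 0.23 (SE, edgeR adjusted p = 0.0229). The call was lost without day 0 replicate 2, day 0 replicate 3, day 1 replicate 1 or day 1 replicate 3 (edgeR adjusted p = 0.0545 to 0.117).

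Adamts9, a versican-cleaving protease, was at 24.2, 12.2 and 15.6 CPM at day 0, 67.4, 47.1 and 40.0 CPM at day 1, 32.5, 34.3 and 25.2 CPM at day 3, 29.4, 18.6 and 23.7 CPM at day 5 and 30.1, 25.6 and 24.6 CPM at day 7. The lowest day 1 library was above the highest library of any other day. Adamts9 averaged 51.5 ± 14.2 CPM at day 1 and 17.3 ± 6.17 CPM at day 0 (SD, n = 3 each), a log2 fold change of 1.57 ± 0.26 (SE, edgeR adjusted p = 0.0109). Its call was lost when day 0 replicate 2 was left out (edgeR adjusted p = 0.0626) and held in each of the other 14 fits that left out 1 library.

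Adamts15, another versican-cleaving member of the branch, was at 25.1, 27.1 and 35.6 CPM at day 0, 41.0, 48.8 and 52.4 CPM at day 1, 84.6, 50.5 and 41.2 CPM at day 3, 60.1, 25.1 and 44.6 CPM at day 5 and 43.2, 28.2 and 28.8 CPM at day 7. It had its highest mean at day 3, not at day 1, and the day 1 and day 3 libraries lay above all day 0 libraries. No difference passed: the log2 fold change was 0.70 ± 0.32 at day 1 (SE, edgeR adjusted p = 0.18) and 1.00 ± 0.32 at day 3 (SE, edgeR adjusted p = 0.152). DESeq2 called the day 3 difference (adjusted p = 0.0418).

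Adamts2, the procollagen N-proteinase, was at 545, 524 and 504 CPM at day 0, 315, 384 and 253 CPM at day 1, 561, 310 and 561 CPM at day 3, 425, 257 and 522 CPM at day 5 and 419, 431 and 193 CPM at day 7. All day 1 and day 7 libraries lay below the day 0 libraries, and from day 3 on the libraries of a day differed widely. It averaged 317 ± 65.3 CPM at day 1 and 524 ± 20.4 CPM at day 0 (SD, n = 3 each), a log2 fold change of -0.72 ± 0.33 that did not pass (SE, edgeR adjusted p = 0.179). The lowest Adamts2 values of day 5 and day 7 were in the 2 libraries rich in hair keratins. Without those 2 libraries the day 1 difference was called at a log2 fold change of -0.72 (edgeR adjusted p = 0.0372).

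Among the inhibitors, Timp1, a soluble inhibitor of many matrix metalloproteinases, was at 90.4, 24.0 and 32.9 CPM at day 0, 181, 176 and 173 CPM at day 1, 161, 126 and 71.7 CPM at day 3, 67.0, 43.1 and 51.6 CPM at day 5 and 35.0, 30.7 and 88.4 CPM at day 7. The day 1 libraries were close together and above all others, and day 0 replicate 1 and day 7 replicate 3 stood high for their days. Timp1 averaged 177 ± 4.25 CPM at day 1 and 49.1 ± 36.0 CPM at day 0 (SD, n = 3 each), with a log2 fold change of 1.85 ± 0.51 (SE, edgeR adjusted p = 0.0459). This was the weakest of the day 1 calls. It was lost in 10 of the 15 fits that left out 1 library, namely day 0 replicates 2 and 3, each day 1 library, day 3 replicates 1 and 2 and each day 5 library (edgeR adjusted p = 0.0531 to 0.181), and also without the filter on low counts (adjusted p = 0.0717). Without day 0 replicate 1 the log2 fold change was 2.64.

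Timp3, the matrix-bound inhibitor of ADAMTS enzymes and of Adam17, was at 253, 260 and 318 CPM at day 0, 175, 154 and 157 CPM at day 1, 148, 151 and 202 CPM at day 3, 228, 271 and 287 CPM at day 5 and 239, 239 and 226 CPM at day 7. All 6 libraries of day 1 and day 3 lay below every library of day 0, day 5 and day 7. Timp3 averaged 162 ± 11.1 CPM at day 1 and 277 ± 35.7 CPM at day 0 (SD, n = 3 each), a log2 fold change of -0.78 ± 0.14 (SE, edgeR adjusted p = 0.0124). The call was lost without day 0 replicate 2 or day 0 replicate 3 (edgeR adjusted p = 0.0575 and 0.0531). Timp3 shares 1733 exonic bases with Syn3 on the opposite strand, and reads of the shared stretch cannot be told apart if strand was not used. Syn3 was at 0.224 to 0.993 CPM and was also lower at day 1 (log2 fold change of -1.18, edgeR adjusted p = 0.0442). The part of this overlap in the Timp3 values was not tested.

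Timp2, which inhibits matrix metalloproteinases and also takes part in the activation of Mmp2, was at 944, 1554 and 1531 CPM at day 0, 654, 719 and 555 CPM at day 1, 791, 695 and 954 CPM at day 3, 789, 559 and 873 CPM at day 5 and 1154, 918 and 430 CPM at day 7. All day 1 and day 5 libraries lay below the day 0 libraries, and the lowest day 7 library was the one rich in hair keratins. It averaged 642 ± 82.6 CPM at day 1 and 1343 ± 346 CPM at day 0 (SD, n = 3 each), a log2 fold change of -1.06 ± 0.31 just outside the threshold (SE, edgeR adjusted p = 0.057). The difference was called without day 0 replicate 1 (log2 fold change of -1.26, edgeR adjusted p = 0.0263) and by DESeq2 (adjusted p = 0.00878). It was also called without both libraries rich in hair keratins (-1.06, edgeR adjusted p = 0.0071) and without day 5 replicate 2, day 7 replicate 1 or day 7 replicate 3 alone (edgeR adjusted p = 0.0118 to 0.0487).

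Timp4, the least widely expressed of the family, was at 12.2, 1.21 and 1.53 CPM at day 0, 8.45, 3.48 and 8.27 CPM at day 1, 2.96, 3.73 and 4.18 CPM at day 3, 5.76, 5.52 and 6.67 CPM at day 5 and 3.87, 4.32 and 3.98 CPM at day 7. Day 0 replicate 1 held the highest value of the course, from 652 counts, and the other day 0 libraries the lowest values, from 48 and 77 counts. No difference from day 0 passed with all libraries (edgeR adjusted p = 0.722 at day 1). Without day 0 replicate 1 the gene was called higher at every day, with log2 fold changes of 2.29 at day 1, 1.40 at day 3, 2.12 at day 5 and 1.56 at day 7 (edgeR adjusted p = 0.00245 to 0.0441). Adipocyte markers, of which Timp4's neighbour Pparg is 1, summed to 1240 CPM in day 0 replicate 1 against 843 and 764 CPM in the other day 0 libraries, and their part in the Timp4 values was not tested. Timp4 shares 90 exonic bases with Syn2, which was at a like level of 1.15 to 3.09 CPM, so reads of the shared stretch cannot be told apart if strand was not used.

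**Figure D2:**
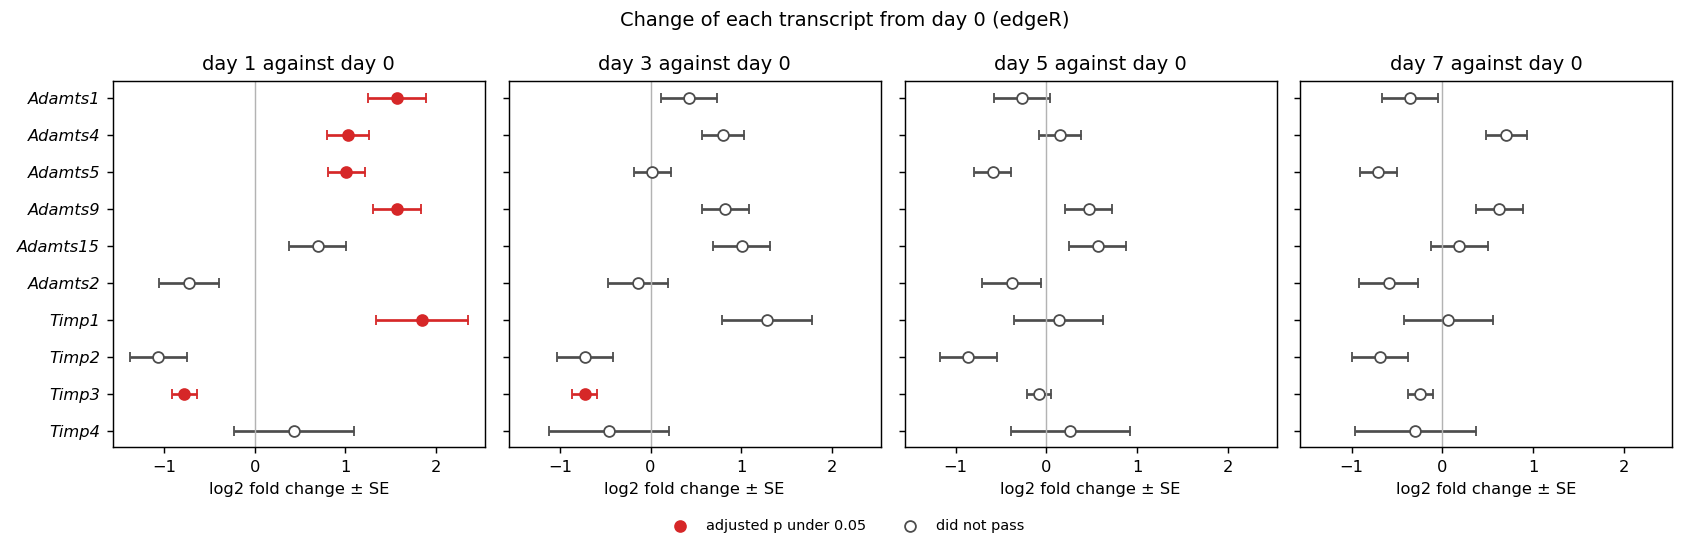
Log2 fold change (horizontal axis) of each gene at day 1, day 3, day 5 and day 7 against day 0, with SE as bars. Filled red points passed an edgeR adjusted p of 0.05 and open points did not. At day 1, 5 filled points lie right of 0 and 1 lies left, and at day 3 Timp3 alone is filled.

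At day 3 Timp3 was still lower than at day 0, and no protease or other inhibitor was called. Timp3 averaged 167 ± 30.3 CPM at day 3 and 277 ± 35.7 CPM at day 0 (SD, n = 3 each), a log2 fold change of -0.73 ± 0.14 (SE, edgeR adjusted p = 0.0393). That 1 called gene of 10 stands beside 0.788% of all tested genes called at day 3, and 0.193% called lower. Adamts4, Adamts9 and Adamts15 were above day 0 in all 3 libraries with log2 fold changes of 0.80, 0.82 and 1.00, which did not pass (edgeR adjusted p = 0.123, 0.15 and 0.152). With Timp3, 4 of the 10 genes had libraries that did not overlap day 0, against 25.5% of all tested genes. The Timp3 call was lost in 9 of 15 fits that left out 1 library, namely day 0 replicates 2 and 3, day 1 replicates 1 and 2, day 3 replicates 1 and 2, day 5 replicate 3 and day 7 replicates 1 and 2 (edgeR adjusted p = 0.0535 to 0.189). Without day 0 replicate 1, by contrast, 5 of the 10 genes were called at day 3, Timp3 and Timp4 among them, with Adamts1 at a log2 fold change of 0.99 (edgeR adjusted p = 0.0332), Adamts9 at 1.14 (0.0287) and Timp1 at 2.07 (0.0309).

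At day 5 none of the 10 genes was called against day 0, where 0.502% of all tested genes were. Adamts5 and Timp2 had an unadjusted p under 0.05, as did 19.7% of all tested genes, and these 2 genes were lower in every day 5 library than in any day 0 library, a separation shown by 26.2% of all tested genes. Adamts5 averaged 75.2 ± 7.16 CPM at day 5 and 113 ± 8.39 CPM at day 0 (SD, n = 3 each, edgeR adjusted p = 0.159). DESeq2 called 0 of the 10 genes at day 5 as well. Without day 0 replicate 1 Timp4 was called, as given above, and without day 7 replicate 3 Timp2 was called lower (log2 fold change of -0.85, edgeR adjusted p = 0.0476).

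At day 7, when 7.05% of all tested genes were called against day 0, none of the 10 was, and 4 had an unadjusted p under 0.05, against 27.9% of all tested genes. Adamts5 averaged 69.3 ± 19.4 CPM at day 7 and 113 ± 8.39 CPM at day 0 (SD, n = 3 each), a log2 fold change of -0.71 ± 0.20 (SE, edgeR adjusted p = 0.0559). Adamts4 was on the other side, with 30.5 ± 1.81 CPM at day 7 and 18.7 ± 2.72 CPM at day 0 (SD, n = 3 each) and a log2 fold change of 0.71 ± 0.23 (SE, edgeR adjusted p = 0.0761). DESeq2 called both (adjusted p = 0.0131 for Adamts5 and 0.026 for Adamts4). Without day 0 replicate 1, Adamts9 was called higher beside Timp4 (log2 fold change of 0.95, edgeR adjusted p = 0.0456). Libraries of day 7 and day 0 did not overlap for 5 of the 10 genes, against 29.2% of all tested genes.

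Between neighbouring days none of the 10 genes was called by edgeR, and almost no gene was: 0.00584% of all tested genes at day 3 against day 1, 0.0233% at day 5 against day 3 and 0.00584% at day 7 against day 5. At an unadjusted p under 0.05 the counts were 3, 5 and 1 of the 10 genes, against 12.8%, 15.1% and 9.18% of all tested genes. DESeq2 called 2 of the 10 at day 3 against day 1 (Adamts1 and Adamts5, both lower at day 3), 1 at day 5 against day 3 (Timp3, higher at day 5) and 0 at day 7 against day 5. The edgeR shares are not the background of these DESeq2 counts. At each of these steps DESeq2 called many more of all tested genes than edgeR did, as listed in the last section. The largest of these differences were those of Adamts1 at day 3 against day 1 (log2 fold change of -1.15 ± 0.31, SE) and Timp1 at day 5 against day 3 (-1.15 ± 0.50, SE).

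The later days were also compared with day 1, a choice made after the values were seen. At day 5, Adamts1, Adamts4, Adamts5 and Adamts9 were lower than at day 1 and Timp3 was higher, 5 of the 10 genes where 7.1% of all tested genes were called. At day 7, Adamts1, Adamts5, Adamts9 and Timp1 were lower than at day 1 and Timp3 was higher, again 5 of the 10, where 14.3% of all tested genes were called. Adamts1 averaged 51.7 ± 4.85 CPM at day 7 and 197 ± 52.9 CPM at day 1 (SD, n = 3 each), a log2 fold change of -1.93 ± 0.32 (SE, edgeR adjusted p = 0.0026). Adamts5 averaged 69.3 ± 19.4 CPM at day 7 and 229 ± 40.8 CPM at day 1 (SD, n = 3 each), a log2 fold change of -1.72 ± 0.21 (SE, edgeR adjusted p = 0.000583). Timp3 averaged 234 ± 7.28 CPM at day 7 and 162 ± 11.1 CPM at day 1 (SD, n = 3 each), a log2 fold change of 0.53 ± 0.14 (SE, edgeR adjusted p = 0.0226). These comparisons share the day 1 libraries with the comparison of day 1 and day 0.

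The falls of Adamts1 and Adamts5 after day 1 were called under all 21 alternatives at both days. Timp3 lost its call at day 5 only without day 1 replicate 2 (edgeR adjusted p = 0.0569), and at day 7 without day 1 replicate 2, day 1 replicate 3 or day 7 replicate 2 (edgeR adjusted p = 0.0648 to 0.0825). For Adamts9 the call at day 5 was lost when any of these 4 libraries was removed: day 1 replicates 1 and 2 and day 5 replicates 2 and 3. The call at day 7 was lost on removal of day 1 replicates 1 or 2 or of day 7 replicates 2 or 3 (edgeR adjusted p = 0.0598 to 0.139). Adamts4 at day 5 lost its call in 6 of 15 fits, those without day 1 replicate 1, day 1 replicate 3, day 3 replicate 1, day 5 replicate 2, day 5 replicate 3 or day 7 replicate 2 (edgeR adjusted p = 0.0523 to 0.17). Timp1 at day 7 lost it in 5, those without any 1 of the day 1 libraries or without day 7 replicate 1 or 2 (edgeR adjusted p = 0.0657 to 0.114), and also without the filter on low counts (adjusted p = 0.0625). Without both libraries rich in hair keratins, Adamts4 and Adamts9 at day 5 and Adamts9 at day 7 were no longer called (edgeR adjusted p = 0.0799, 0.0628 and 0.0571), while Timp2 was called higher at day 7 than at day 1 (log2 fold change of 0.69, edgeR adjusted p = 0.0455). Timp1 at day 5 was called lower than at day 1 without day 0 replicate 1 or without day 7 replicate 3 (log2 fold changes of -1.71 and -1.70, edgeR adjusted p = 0.0232 and 0.0323).

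**Figure D3:**
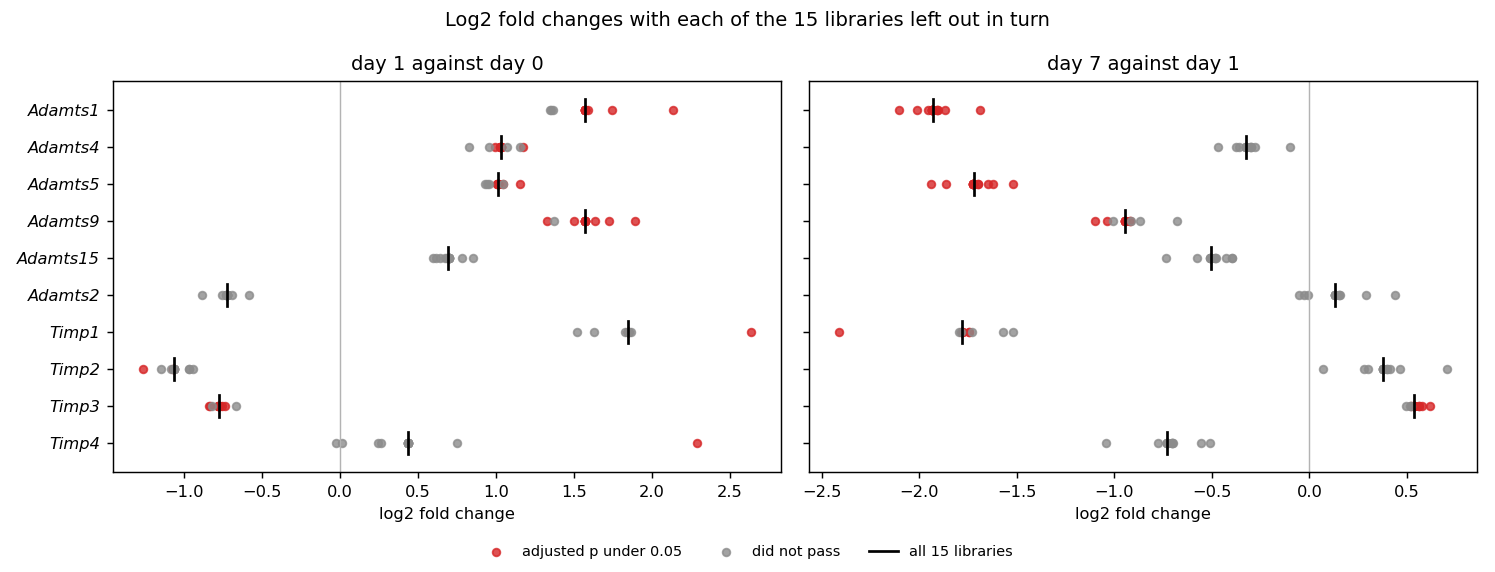
Log2 fold changes (horizontal axis) of the 10 genes at day 1 against day 0 and at day 7 against day 1, refitted 15 times, each time with a different library removed. Black marks are the values with all 15 libraries, red points passed an edgeR adjusted p of 0.05 and grey points did not. The 15 points of Adamts1 and of Adamts5 are all red at day 7 against day 1, whereas at day 1 against day 0 each called gene has grey points too.

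Asked whether there was any difference over the 5 days, the F test called 6 of the 10 genes, where 13.9% of all tested genes were called. They were Adamts5 (edgeR adjusted p = 0.002), Adamts1 (0.00641), Timp3 (0.00759), Adamts9 (0.0136), Adamts4 (0.0306) and Timp1 (0.0425). Adamts1, Adamts5 and Timp3 kept this call in all 15 fits that left out 1 library, Adamts9 lost it without day 1 replicate 1 (edgeR adjusted p = 0.0507), and Adamts4 and Timp1 lost it in 8 and 12 of the 15. Adamts2, Adamts15, Timp2 and Timp4 did not pass (edgeR adjusted p = 0.329, 0.142, 0.119 and 0.716), although Timp2 passed without both libraries rich in hair keratins (edgeR adjusted p = 0.022). The spread between libraries of a day also differed: the fitted biological coefficient of variation was 16.3% for Timp3, 20.7% for Adamts5, 42.2% for Timp1 and 55.7% for Timp4.

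The balance of protease to inhibitor transcripts was described within each library as the log2 ratio of a protease to Timp3, relative to the day 0 mean. No test was made on these ratios, since they combine genes already compared. For Adamts1 over Timp3 the day 1 libraries stood 2.72, 2.51 and 2.09 above the day 0 mean, and the day 0 libraries ranged from -0.67 to 0.98. For Adamts4 over Timp3 the day 1 libraries stood at 2.03, 1.55 and 1.77. For Adamts5 over Timp3 they stood at 1.82, 2.00 and 1.49. By day 7 the 3 proteases had parted. The ratio of Adamts1 lay near the day 0 mean (0.0048 ± 0.11, SD, n = 3), that of Adamts5 was below it in all 3 libraries (-0.14, -0.50 and -0.89), and that of Adamts4 was above it in all 3 (1.02, 0.88 and 0.95). The day 0 mean of the Adamts1 ratio was raised by replicate 1, at 0.98, beside -0.30 and -0.67 in the other day 0 libraries. Against the mean of those other 2 libraries the Adamts1 ratio stood at 0.62, 0.42 and 0.44 at day 7, above both, and the Adamts4 and Adamts5 ratios of day 7 kept their sides.

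**Figure D4:**
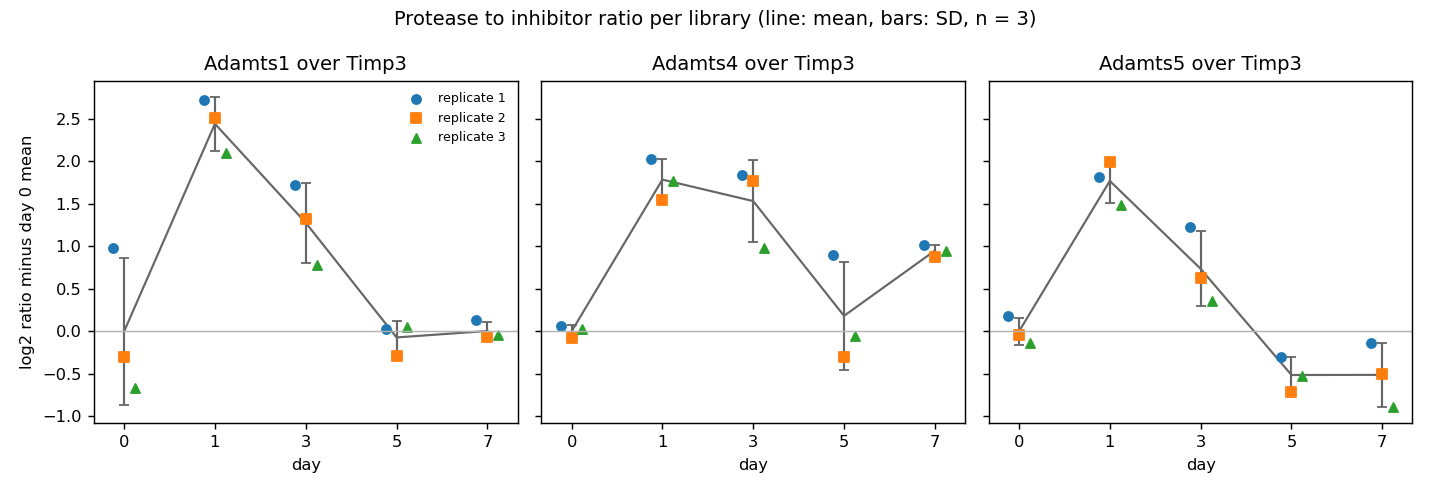
Log2 ratio of Adamts1, Adamts4 and Adamts5 CPM to Timp3 CPM in each library, minus the day 0 mean (vertical axis), against the day. Points are libraries, lines join the means and bars are SD (n = 3). All day 1 points lie at 1.49 or more, and at day 7 the Adamts4 points lie above 0 while the Adamts5 points lie below it.

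To compare levels between genes, CPM were divided by the length in kb of the longest coding transcript (GENCODE M21). At day 0 the order ran from Timp2 (362 CPM per kb) through Adamts2 (72.2), Timp3 (58.7), Timp1 (55.6), Adamts1 (13.6), Adamts5 (10.5), Adamts15 (4.94), Adamts4 (4.25) and Adamts9 (2.16) to Timp4 (0.904 CPM per kb). Timp1 overlapped its neighbours Timp3 and Adamts2 in this order, and likewise Adamts1 and Adamts5, Adamts15 and Adamts4, and Adamts9 and Timp4 overlapped. At day 1 Timp1 stood first at 200 ± 4.81 CPM per kb, its libraries at 196 to 205, with Timp2 at 173 ± 22.3 CPM per kb, its libraries at 150 to 194 (SD, n = 3 each). Adamts2, Adamts1 and Timp3 followed with overlapping libraries at 43.7, 40.3 and 34.3 CPM per kb. Which transcripts the authors counted is not given in the sources used here, so these levels hold for that length only.

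Of 13 further ADAMTS proteases, 1 was called lower at day 1 and 12 did not pass, and the median log2 fold change of the 13 was -0.17. The gene called was Adamts10, a protease associated with fibrillin microfibrils, with 17.7 ± 2.22 CPM at day 1 and 33.9 ± 8.45 CPM at day 0 (SD, n = 3 each, log2 fold change of -0.94, edgeR adjusted p = 0.0347). Adamts7, which cleaves cartilage oligomeric matrix protein, was called at day 3 with 16.3 ± 4.58 CPM, against 4.63 ± 1.11 CPM at day 0 (SD, n = 3 each, log2 fold change of 1.81, edgeR adjusted p = 0.0334). The F test over the days called Adamts7, Adamts16 and Adamts17 of these 13. Among 6 ADAMTS-like genes, which encode no protease, Papln was called lower at day 1 (log2 fold change of -1.03, edgeR adjusted p = 0.0195) and the other 5 did not pass. At day 1, 5 of these 6 genes had an unadjusted p under 0.05. The median log2 fold change of the 6 was -0.82, against -0.01 over all tested genes.

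Of 14 genes for substrates of ADAMTS proteases and their matrix partners, 2 were called higher and 1 lower at day 1. At day 3, day 5 and day 7 edgeR called 0 of them, with 5, 2 and 2 at an unadjusted p under 0.05 and 1, 0 and 0 called by DESeq2. Vcan, the versican core protein, averaged 222 ± 18.2 CPM at day 1 and 99.3 ± 36.4 CPM at day 0 (SD, n = 3 each), a log2 fold change of 1.16 ± 0.22 (SE, edgeR adjusted p = 0.0152). Thbs1, thrombospondin of platelets and wound cells, rose by 2.23 ± 0.50 on the log2 scale (SE, edgeR adjusted p = 0.023). Comp fell by 1.62 on the log2 scale from a low level, with 0.456 ± 0.146 CPM at day 1 and 1.41 ± 0.527 CPM at day 0 (SD, n = 3 each, edgeR adjusted p = 0.0284). The median of the list was -0.08, and the aggrecan gene Acan, named after its values were seen, was at 1.48 ± 1.69 CPM at day 1 and 0.565 ± 0.684 CPM at day 0 (SD, n = 3 each, edgeR adjusted p = 0.379).

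Of 6 genes for fibrillar procollagen chains, which Adamts2 and its close relatives process, edgeR called 0 at any day against day 0. At day 1, 4 had an unadjusted p under 0.05 and DESeq2 called 2, both lower, and at later days both counts were 0. Their median log2 fold change at day 1 was -0.98, beside -0.72 for Adamts2 itself. Col5a1 was at 370 ± 55.5 CPM at day 1 and 700 ± 95.2 CPM at day 0 (SD, n = 3 each, edgeR adjusted p = 0.0519).

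Genes that act on the same matrix or on the proteases themselves were called in both directions. Of 18 tested matrix metalloproteinase genes, 2 were called higher and 1 lower at day 1, 1 higher at day 3 and 2 higher at day 7. At day 5 edgeR called 0, with 4 at an unadjusted p under 0.05 and 1 called by DESeq2. Mmp8, the neutrophil collagenase, was at 23.6 ± 3.59 CPM at day 1 and 2.90 ± 1.55 CPM at day 0 (SD, n = 3 each, log2 fold change of 3.02, edgeR adjusted p = 0.00515). Mmp12, the macrophage elastase, was at 203 ± 93.3 CPM at day 7 and 34.2 ± 29.5 CPM at day 0 (SD, n = 3 each, log2 fold change of 2.57, edgeR adjusted p = 0.0241). Of 8 tested ADAM genes, Adam8 and Adam9 were called higher at day 1 (log2 fold changes of 1.55 and 0.53), and at day 7 Adam12 was called higher and Adam15 lower (1.63 and -0.68). Among 9 genes of protease activation, anchoring and clearance, the proprotein convertase Pcsk5 rose at day 1 (log2 fold change of 1.37, edgeR adjusted p = 0.0272) and at day 3 (1.92, edgeR adjusted p = 0.0334), the hyaluronan receptor Cd44 rose at day 1 (0.98) and Pcsk6 fell at day 1 (-0.48). A2m, a broad plasma protease inhibitor, was called higher at day 3 and day 7 from very low levels, with at most 0.434 CPM on average. Reck, a membrane-anchored metalloproteinase inhibitor, fell at day 7, with 26.6 ± 8.46 CPM against 48.2 ± 3.48 CPM at day 0 (SD, n = 3 each, edgeR adjusted p = 0.0473).

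Of 10 genes for cytokines and growth factors known to induce ADAMTS or TIMP genes in culture, 2 were called higher and 1 lower at day 1, and 7 did not pass. At day 1, 8 of the 10 had an unadjusted p under 0.05. The median log2 fold change of the 10 was 0.61 at day 1, against -0.01 over all tested genes. At day 3, day 5 and day 7 edgeR called 0 of them, with 4, 3 and 6 at an unadjusted p under 0.05 and 0, 1 and 3 called by DESeq2. Il6 was at 22.5 ± 10.8 CPM at day 1 and 1.86 ± 1.96 CPM at day 0 (SD, n = 3 each, log2 fold change of 3.59, edgeR adjusted p = 0.0127). Osm, encoding oncostatin M, was at 22.6 ± 8.10 CPM at day 1 and 3.16 ± 3.34 CPM at day 0 (SD, n = 3 each, log2 fold change of 2.83, edgeR adjusted p = 0.0314). Tgfb2 fell by 1.49 on the log2 scale (edgeR adjusted p = 0.0344).

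For each gene called over the days, the 3 genes with the most similar course were found among 11872 genes, by the root mean square difference of centred log2 CPM over the 15 libraries. This is a description, and all distances share the same libraries. The nearest to Adamts5 was Pdgfra, the receptor that marks dermal fibroblasts, at 0.16, followed by Gda and Cd244, where Adamts5 itself varied by 0.65 around its mean. Adamts1 was nearest to Ltb4r1 (0.20), Gldc and Sbno2. Adamts4 and Adamts9 shared Ugcg as the nearest gene (0.23 and 0.25), followed by Plscr1 and Glipr2 for Adamts4 and by Nek6 and Hif1a for Adamts9. Timp1 was nearest to Hbegf (0.36), Thbs1 and Il33, and Timp3 to Fads6 (0.17), Sema3e and Cobl.

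Summed markers of some cell types did not overlap between day 1 and day 0, and those of others did. The 6 fibroblast markers summed to 24048 to 51321 CPM at day 1 and 58939 to 69238 CPM at day 0, a sum dominated by collagen transcripts, and 1 of the 6, Pdgfra, was called higher at day 1 (424 ± 91.4 CPM, against 174 ± 20.9 CPM at day 0, SD, n = 3 each, edgeR adjusted p = 0.00911). All 6 neutrophil markers were called higher at day 1, with sums of 807 to 1274 CPM at day 1 and 58.0 to 201 CPM at day 0, and Ly6g was at 0 in 2 libraries of later days. The 6 macrophage markers summed to 1587 to 1895 CPM at day 1 and 1521 to 2142 CPM at day 0. Of these 6, Cd14 was called higher at day 1 (162 ± 54.8 CPM, against 49.3 ± 7.22 CPM at day 0, SD, n = 3 each, edgeR adjusted p = 0.0152). The other 5 did not pass, with Csf1r, C1qa and Adgre1 at log2 fold changes of -0.83, -0.83 and -0.61. The 5 keratinocyte markers summed to 5574 to 12027 CPM at day 1 and 4059 to 7110 CPM at day 0. The part of these cell types in the ADAMTS and TIMP differences was not tested.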

How the data were processed

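RNA-seq of mouse skin was deposited as 1 file per library, and all 15 libraries were assigned to day 1, day 3, day 5, day 7 or day 0 from their labels. The values are estimated counts per gene symbol, which the authors made, per the submitters' processing notes, with kallisto 0.43. Its index, the annotation and build, and whether strand was used, are not given in the sources used; overlapping genes therefore cannot be told apart. Libraries were made with the VAHTS mRNA-seq V2 kit per the labels' protocols. Each file held 30307 rows, of which 26 carried calendar dates in place of symbols (0.155% to 0.179% of the counts) and were left out. All deposited estimated counts were already whole, and rounding changed 0 values.

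Tests used edgeR 4.0.16 in R 4.3.3: a robust quasi-likelihood fit of the 5 days over all 15 libraries, TMM scaling, an expression filter with a minimum count of 10 and Benjamini-Hochberg adjustment over 17136 genes, with a threshold of 0.05 on the adjusted p. Contrasts were tested two-sided. CPM use the same scaling, SE are the absolute log2 fold change over the square root of F, and log2 ratios use a prior count of 0.5. Library totals were 38062562 to 60450396. The 10 genes had at least 48 counts in every library, so their counting error is below the fitted common biological coefficient of variation of 30.9%, which does not hold for genes at very low levels such as A2m. No pair of libraries of the same day held identical values.

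The 10 genes and all gene lists were chosen with earlier results of these data known. Named are all 10 genes and the 3 genes nearest to each of them that the F test called. From the gene lists some genes, called or not, are named and others are only counted, so the named genes are a selection. For the procollagen list, with no call against day 0, the gene of smallest F test p is named. Alternatives were relative log expression scaling, no filter, DESeq2 1.42.0, a replicate block, leaving out each library, leaving out both hair-keratin-rich libraries, and day 0 replicate 1 as the only day 0 library, where that lone library is assumed to vary like the other groups. Comparisons of day 5 and day 7 with day 1 were chosen after seeing the data.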

Additional observations from a re-analysis of the deposited data

How the results depend on the processing

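Under relative log expression scaling and under DESeq2, 0 of 90 log2 changes of the 10 genes changed sign. Deviations of the 30 same-numbered pairs of libraries had a median correlation of 0.0728 (-0.681 to 0.452), and the 60 others -0.0172 (-0.545 to 0.736). With ranges this wide, these correlations cannot settle whether replicate numbers pair the libraries. With the replicate block, 862, 78 and 27 genes were called at day 1, 3 and 5 against day 0 and 4, 1 and 0 between neighbouring days. The block added 1 of the 10 genes at day 7, Adamts5 at -0.73 (edgeR adjusted p = 0.0466), and changed no other count of the 10 genes by over 1.5 times.

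Of 17136 tested genes, DESeq2 called 2786, 943, 1160 and 2822 at day 1, 3, 5 and 7 against day 0. Between neighbouring days it called 465, 520 and 151. It called 2353 and 3701 at day 5 and day 7 against day 1, and 5853 over the days. Of the 10 genes it called 4 at day 3 against day 0, beside 943 of all 17136, and 2 at day 7, beside 2822. It called 2 of the 10 at day 3 against day 1, beside 465 of all 17136, and 1 at day 5 against day 3, beside 520. With no filter, 71 genes were called at day 3 against day 0 and 9 at day 5 against day 3. Without both hair-keratin-rich libraries, 3545, 697, 306 and 786 genes were called at day 1, 3, 5 and 7 against day 0, 260, 0 and 0 between neighbouring days and 3828 over the days, with 1 of the 10 genes at day 3 against day 1 and 3 at day 5 against day 1. When day 0 was reduced to its replicate 1, 0, 0, 0 and 79 genes were called against day 0, 12, 19 and 0 between neighbouring days and 1008 over the days, and 0 of the 10 at day 1 and at day 3. The cause of these shifts was not tested.

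Leaving out 1 library at a time, between 0 (without day 0 replicate 2) and 8 (without day 0 replicate 1) of the 10 genes were called at day 1 against day 0. The ranges for the following days were 0 to 5 (day 3), 0 to 1 (day 5) and 0 to 2 (day 7). The ranges were 0 to 1 for day 5 against day 3, 3 to 6 for day 5 against day 1, 2 to 5 for day 7 against day 1 and 3 to 7 over the days. All genes called ranged over 33 to 2494, 0 to 629, 0 to 820 and 279 to 2074 at day 1, 3, 5 and 7 against day 0, 0 to 29, 0 to 25 and 0 to 2 between neighbouring days, 339 to 1788 and 1134 to 2880 at day 5 and day 7 against day 1, and 1174 to 2973 over the days. Timp4 reversed without day 0 replicate 1, to 1.40 at day 3 and 1.56 at day 7 (edgeR adjusted p = 0.0441 and 0.0252). Over the libraries left out, its log2 change ranged over -0.92 to 1.40 at day 3 and -0.76 to 1.56 at day 7. Every called change of the 10 genes kept its direction under all alternatives run. Of 1533 alternative values of changes not called with all libraries, 35 were called, and 48 changed direction without being called.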
